A study of Mus musculus with 6 samples.

Results

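The small leucine-rich proteoglycans are secreted matrix proteins built on a curved solenoid of leucine-rich repeats, and most carry chondroitin, dermatan or keratan sulfate chains. The 10 genes described here were chosen by name: Dcn (decorin), Lum (lumican), Bgn (biglycan), Fmod (fibromodulin), Kera (keratocan), Epyc (epiphycan), Ogn (osteoglycin, also called mimecan), Omd (osteomodulin), Prelp and Aspn (asporin). All 10 were measured, by 21 probe sets that the array's platform annotation assigns to one of these genes alone, out of 45101 probe sets in all. A probe set is a group of short oligonucleotides on the array that together report 1 transcript. RNA came from microdissected thyroid of mice at postnatal day 15, from 3 samples heterozygous for Slc26a4, called heterozygous 1, 3 and 5, and 3 samples with Slc26a4 knocked out, called knockout 2, 4 and 6. Slc26a4 encodes pendrin, an anion exchanger of the thyroid follicular cell, and the heterozygous animals, which carry 1 altered copy, are the comparison group, so no array came from an animal labelled wild type. The sources used here give neither strain nor sex, nor the form of the Slc26a4 allele. Whether the 6 arrays stand for 6 animals is not stated, and p-values therefore measure only the spread between these samples, which may be technical.

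Decorin, biglycan and asporin form the first class of the family and bear chondroitin or dermatan sulfate, except asporin, which lacks a chain. Lumican, fibromodulin, keratocan, osteomodulin and Prelp belong to the second class, in which keratan sulfate is common, and epiphycan and osteoglycin to the third. Most members bind collagen fibrils and set their thickness and spacing, and decorin, biglycan and asporin also bind transforming growth factor beta. Decorin, lumican, biglycan and osteoglycin are widespread in connective tissue stroma. Fibromodulin and asporin are known from tendon, ligament and other dense tissue, and keratocan from the cornea and also tendon. Epiphycan and Prelp are known from cartilage, and osteomodulin from bone. In the thyroid such genes belong to the stroma between follicles, the capsule and whatever neighbouring tissue a dissection takes along.

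By RefSeq's gene order on mouse assembly GRCm38.p6, the members lie in 3 groups of neighbours, with Bgn alone on chromosome X. Dcn, Lum, Kera and Epyc follow each other on chromosome 10 with no other protein-coding gene between them. Aspn, Omd and Ogn follow each other on chromosome 13, next to the related gene Ecm2. Prelp and Fmod are neighbours on chromosome 1, beside the related gene Optc. No genome build of the array itself is named, so the assembly was used only for this order and for promoter sequences.

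RefSeq promoter windows were found for 8 members, and none for Dcn and Lum. The 250 bases before the annotated start are shown for 4 of them, Epyc, Fmod, Bgn and Ogn. By the brightest probe set, the highest array was 2.16 and 3.69 times the lowest for Epyc and Fmod. For Bgn and Ogn it was 1.14 and 1.21 times. Capitals mark the motifs searched on both strands: the TATA box TATAAA, the E-box CANNTG, the SOX core AACAAT, the SMAD half-site CAGAC and the AP-1 site TGACTCA. Build GRCm38.p6 applies to all, and each window is on the plus strand, at chr10:97643818-97644067 for Epyc, chr1:134037004-134037253 for Fmod, chrX:73483351-73483600 for Bgn and chr13:49607765-49608014 for Ogn.
Epyc: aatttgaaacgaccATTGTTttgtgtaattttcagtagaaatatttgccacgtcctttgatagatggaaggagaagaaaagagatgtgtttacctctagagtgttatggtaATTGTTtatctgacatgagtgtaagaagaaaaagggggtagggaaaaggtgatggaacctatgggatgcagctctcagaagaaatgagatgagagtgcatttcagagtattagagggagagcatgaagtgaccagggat
Fmod: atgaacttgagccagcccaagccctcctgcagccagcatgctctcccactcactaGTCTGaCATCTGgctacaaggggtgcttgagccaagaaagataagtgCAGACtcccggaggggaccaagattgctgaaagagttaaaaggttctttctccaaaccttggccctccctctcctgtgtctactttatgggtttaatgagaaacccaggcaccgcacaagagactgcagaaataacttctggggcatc
Bgn: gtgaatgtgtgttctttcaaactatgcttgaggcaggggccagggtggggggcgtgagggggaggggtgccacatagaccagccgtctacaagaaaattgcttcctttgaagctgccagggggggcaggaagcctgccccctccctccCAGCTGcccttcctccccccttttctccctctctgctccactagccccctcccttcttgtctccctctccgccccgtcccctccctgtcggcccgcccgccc
Ogn: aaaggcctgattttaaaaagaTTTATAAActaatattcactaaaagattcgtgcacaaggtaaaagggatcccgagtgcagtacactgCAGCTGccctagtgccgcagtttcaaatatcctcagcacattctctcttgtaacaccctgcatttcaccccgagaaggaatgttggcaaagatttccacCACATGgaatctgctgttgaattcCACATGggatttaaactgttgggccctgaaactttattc
Of 2 Epyc windows in the RefSeq table, the one shown, at the start of the gene model, held 2 SOX cores and none of the other motifs. The second held 3 SOX cores and 2 E-boxes. Over the 9 windows of the 8 members, 5 held a SOX core, both of Epyc and those of Kera, Aspn and Prelp. By their brightest probe sets, Aspn and Prelp ranged only 1.19-fold and 1.17-fold. The Fmod window held 1 E-box and 2 SMAD half-sites. The Bgn window held 1 E-box, in a stretch with a GC content of 64.4%, and the Ogn window held 3 E-boxes and 2 overlapping matches of the TATA box, 1 on each strand. Over all 32851 windows of the same length, 9.42% held the SOX core, 66.2% an E-box, 42.2% the SMAD half-site, 12.4% the TATA box and 4.46% the AP-1 site. These are matches of letters and not measured binding sites.

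The deposited values are linear signals without a unit, scaled by the authors so that the trimmed mean was 500.002 on every array, and array medians lay between 78.1 and 103.6. The brightest of 27 control probe sets for bacterial transcripts, used as the background, read 22.9. Slc26a4 itself read between 2.10 and 15.7 over the 6 arrays, under the background in both genotypes, so its probe set does not check the genotype. Tg, which encodes thyroglobulin and defines thyroid tissue, read between 11794 and 13805. Some arrays stood apart in tissue neighbouring the thyroid. Pth, the parathyroid hormone gene, read 165.2 on heterozygous 1 and 2788 on knockout 6 against 9702 to 11058 on the others, and Dntt, a thymocyte gene, read 1779 on knockout 4 against 6.09 to 24.5 elsewhere. Cd3d and Cd8a, T cell genes, were also highest on knockout 4. Casr, the calcium receptor, ranged 5.49-fold, the airway genes Bpifa1, Krt5, Dynlrb2 and Scgb1a1 between 2.74-fold and 17.7-fold, and Slc5a5, the thyroid iodide transporter, 2.63-fold. The part of these tissues in the members' values was not tested. In whole tissue, fewer cells of a type and less RNA per cell cannot be told apart.

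No member passed the test between genotypes. Of the 21 member probe sets, 20 passed the filter on mean signal and were tested, and 0 of the 20 passed an adjusted p of 0.05 (limma with Benjamini-Hochberg adjustment over 27022 probe sets, adjusted p = 1 for each), where 0% of all probe sets tested passed. At an unadjusted p under 0.05 limma gave 0 of the 20, against 138 or 0.511% of all. The groups overlapped for all 20, while they did not overlap for 3.68% of all probe sets tested, with the knockout arrays above in 1.64% and below in 2.04%. Every difference below is knockout minus heterozygous on the scale log2(signal + 16.7), which understates the change of dim genes. Signals of different genes are not set against each other, because probe sets differ in brightness for reasons of their own.

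**Figure D1:**
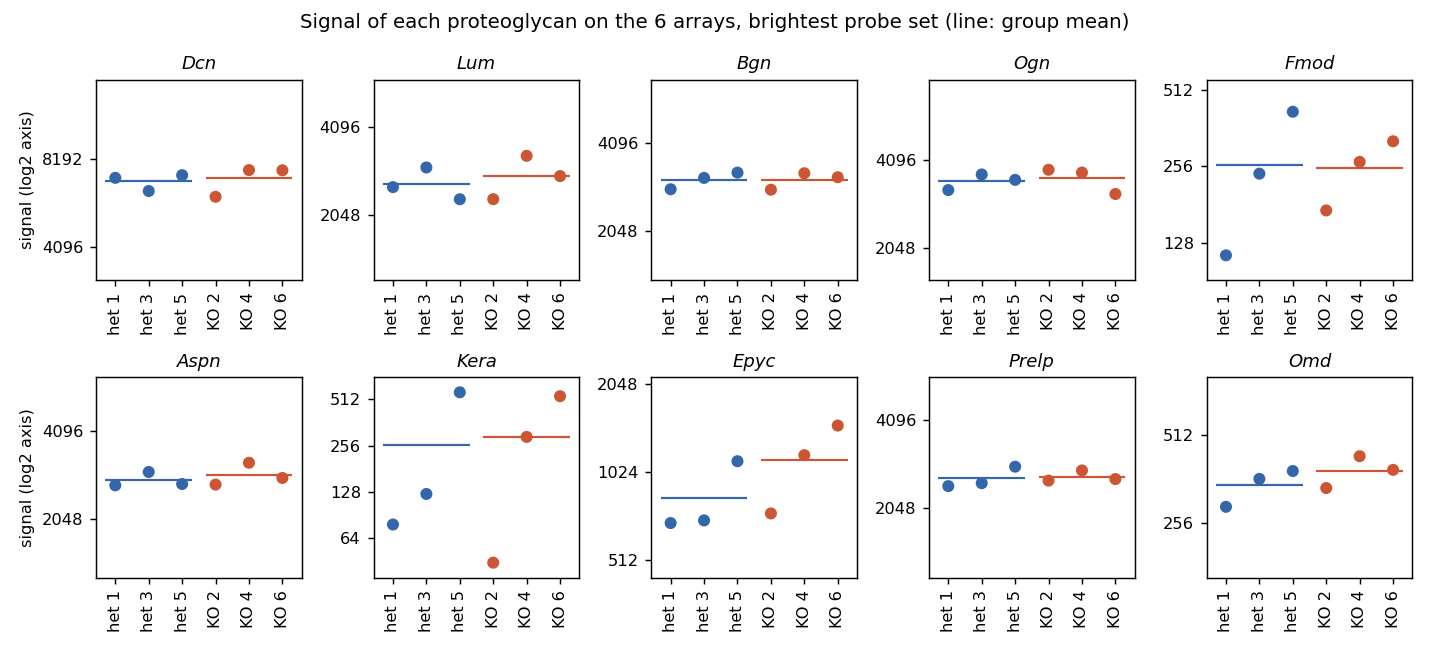
Signal (log2 axis, a different range in each panel) of the 10 proteoglycan genes on the 6 arrays, each by its brightest probe set. Points are arrays, blue for heterozygous and orange for knockout, and lines are group means. Kera spans 44.2 to 569 and its groups overlap, while Bgn stays between 2836 and 3244.

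Among the stroma members, decorin, which coats collagen fibrils and binds growth factors, was bright on every array. Probe set 1449368_at read 7089, 6391 and 7239 on heterozygous 1, 3 and 5 and 6106, 7537 and 7523 on knockout 2, 4 and 6. Knockout 2 was lowest and knockout 4 highest, so both extremes lay in the same group. The means were 6906 ± 453 and 7055 ± 822 (SD, n = 3 in each group here and below), which differed by 0.026 on the log2 scale (95% interval -0.21 to 0.26, as for every interval below). A second decorin probe set, 1441506_at, was less steady, at 231.8, 203.8 and 263.5 in heterozygous and 142.4, 249.6 and 376.5 in knockout samples. It too was lowest on knockout 2, and its log2 difference was 0.039 (-0.68 to 0.76).

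Biglycan, the closest relative of decorin, was the steadiest member. By 1416405_at it read 2846, 3111 and 3244 in heterozygous and 2836, 3228 and 3128 in knockout samples. Its highest value was 1.14 times its lowest, a range at percentile 4.90 of all probe sets tested, near the low end. Means were 3067 ± 203 and 3064 ± 204, with a log2 difference of -0.0014 (-0.22 to 0.21). The further biglycan probe sets, 1437889_x_at and 1448323_a_at, gave -0.011 and 0.015, so the 3 disagreed in sign around 0.

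Lumican, a keratan sulfate proteoglycan of cornea and other stroma, read 2561, 2989 and 2327 in heterozygous and 2329, 3277 and 2793 in knockout samples. Its lowest values were on heterozygous 5 and knockout 2, and its highest on knockout 4. Means of 2626 ± 336 and 2799 ± 474 differed by 0.086 on the log2 scale (-0.25 to 0.42). Without knockout 4 the difference was -0.034. Osteoglycin, which binds collagen and was first isolated from bone, read 3222, 3643 and 3491 in heterozygous and 3780, 3699 and 3123 in knockout samples by 1419663_at. Knockout 6 was lowest and knockout 2 highest, the reverse of their order in decorin. Its log2 difference was 0.030 (-0.20 to 0.26), and that of 1419662_at, at 712 ± 133 and 695 ± 194, was -0.052 (-0.55 to 0.44).

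The tendon members split in how much they varied. Asporin, which binds collagen and is named for its run of aspartates, was steady by 1448421_s_at, at 2672, 2968 and 2700 in heterozygous and 2688, 3191 and 2831 in knockout samples. The log2 difference was 0.060 (-0.16 to 0.29). Its second probe set, 1416652_at, read 970.1, 1242 and 1172 against 1055, 1761 and 1197, with a difference of 0.22 (-0.24 to 0.67). Knockout 4 was highest by both probe sets, and without it the difference by 1416652_at was 0.0019.

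Fibromodulin, which controls fibril assembly in tendon, varied more between arrays. By its brightest probe set, 1456084_x_at, it read 114.1, 239.5 and 420.4 in heterozygous and 171.5, 266.5 and 321.5 in knockout samples. The heterozygous arrays held both the lowest and the highest value, 3.69-fold apart, and the knockout values lay between them. Means were 258 ± 154 and 253 ± 75.9, with a log2 difference of 0.10 (-0.87 to 1.07). It was -0.35 without heterozygous 1 and 0.52 without heterozygous 5. All 6 fibromodulin probe sets were highest on heterozygous 5, and the other 5 read between 15.8 and 131.4. Of those 5, 1438966_x_at fell under the filter and was above background on 4 arrays, and the tested 4 gave differences between -0.18 and 0.20. The annotation gives no accession for 5 of the 6 probe sets, and the suffix x in their names marks probes that may also match other transcripts. The probe set without that suffix, 1415939_at, read 35.5, 70.4 and 109.5 in heterozygous and 38.4, 82.1 and 56.1 in knockout samples. Its difference was -0.18, and knockout 6 was not among its 3 highest arrays.

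Keratocan, a keratan sulfate proteoglycan that keeps the cornea clear, varied most. Probe set 1418063_at read 78.4, 123.9 and 568.7 in heterozygous and 44.2, 291.4 and 536.6 in knockout samples. Its highest value was 12.9 times its lowest, a range at percentile 99.7 of all probe sets tested. Heterozygous 5 and knockout 6 were high and heterozygous 1 and knockout 2 low, so each genotype held both kinds. The means, 257 ± 271 and 291 ± 246, differed by less than either SD. The log2 difference was 0.14 with an SE of 0.89, and its interval, -1.92 to 2.19, leaves room for a large difference in either direction. It was 1.06 without knockout 2 and 0.92 without heterozygous 5, and turned negative without heterozygous 1 (-0.40), heterozygous 3 (-0.11), knockout 4 (-0.11) or knockout 6 (-0.54).

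Among the cartilage and bone members, epiphycan, a proteoglycan of growth plate cartilage, had the largest difference by a brightest probe set. By 1421114_a_at it read 685.1, 699.4 and 1115 in heterozygous and 739.1, 1170 and 1477 in knockout samples. The arrays fell apart into 3 low values, up to 739.1, and 3 high values, from 1115, and each genotype held both. Means were 833 ± 244 and 1129 ± 371, which differed by 0.41 (log2, SE 0.28), between -0.23 and 1.05 (limma, unadjusted p = 0.176, adjusted p = 1). The difference stayed above 0 with any 1 array left out, between 0.19 without knockout 6 and 0.68 without knockout 2. It was 0.073 without heterozygous 1 and knockout 6, the arrays with the lowest Pth. Those arrays also held the lowest and the highest Epyc value, so leaving out both had to shrink the difference. The pair was chosen after the data were seen.

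Prelp, which anchors basement membranes to the underlying collagen, was steady by both probe sets. By 1416321_s_at it read 2434, 2492 and 2837 in heterozygous and 2543, 2755 and 2574 in knockout samples, and the log2 difference was 0.022 (-0.20 to 0.24). By 1416322_at the means were 1153 ± 64.2 and 1079 ± 64.2, a difference of -0.095 (-0.34 to 0.15). The 2 probe sets disagreed in sign and both intervals spanned 0. Osteomodulin, a keratan sulfate proteoglycan of mineralised matrix, read 290.9, 362.5 and 385.7 in heterozygous and 337.4, 433.5 and 389.2 in knockout samples. Heterozygous 1 was lowest and knockout 4 highest, and the log2 difference was 0.15 (-0.23 to 0.54).

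**Figure D2:**
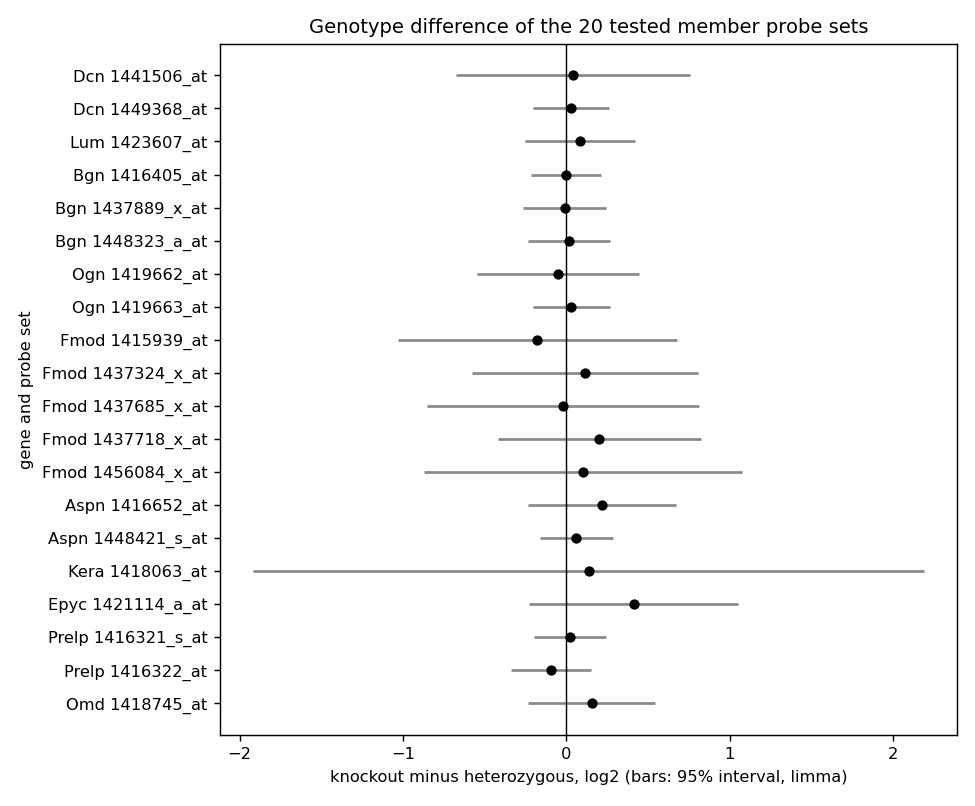
Knockout minus heterozygous difference (log2 scale, horizontal axis) of the 20 tested probe sets of the 10 genes, with bars for the 95% interval from limma. Every bar crosses 0, and the Kera bar, from -1.92 to 2.19, is the widest.

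By the brightest probe set of each gene, 9 of the 10 members had a log2 difference above 0 and Bgn lay below at -0.0014. For Fmod, 1 of the 9, the means of the linear signals leaned the other way, at 258 in heterozygous and 253 in knockout samples. Over the 20 tested probe sets 14 were above, or 6 below, while 49.3% of all probe sets tested were above 0. The median difference over the 10 members was 0.073, against -0.0021 over all probe sets tested. The median over the members fell to -0.011 without knockout 4 and rose to 0.17 without knockout 2. Without heterozygous 1 it was 0.0072, against -0.014 over all probe sets tested in that setting. The size of the lean thus changed with single arrays. The medians were 0.028 over the 4 stroma members, 0.10 over the 3 tendon members and 0.15 over the 3 cartilage and bone members. A median of 3 genes is the value of 1 gene, here Fmod for the tendon members and Omd for the cartilage and bone members. Without knockout 4 the stroma median was -0.030 and the tendon median -0.0096, and without heterozygous 1 the tendon median was -0.35. The members share the same 6 RNA samples, so their directions are not independent observations.

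Several members varied between arrays of the same genotype. By the brightest probe set, 7 of the 10 members had their 3 highest values on heterozygous 5, knockout 4 and knockout 6, namely Dcn, Bgn, Fmod, Kera, Epyc, Omd and Prelp. Over the members' tested probe sets the count was 11 of 20, and over all probe sets tested the share was 11.6%. Prelp 1416322_at, highest on heterozygous 1, Bgn 1437889_x_at and Fmod 1415939_at and 1437718_x_at did not follow their gene's brightest probe set. For Bgn, Prelp and Dcn the margin was narrow. Their lowest value on these 3 arrays was 3128, 2574 and 7239, and their highest elsewhere was 3111, 2543 and 7089. This set of arrays was chosen after the values of Kera were seen, and Kera is among the 7. The set holds 2 knockouts and 1 heterozygote, and the members' log2 differences leaned to the knockout side. The part of these arrays in that lean was not tested. Lum, Ogn and Aspn did not follow it. The size of the swing was unequal among the classes, and that of the tendon members was set by Fmod and Kera, since Aspn stayed between -0.085 and 0.17 of its mean. On heterozygous 1 the median deviation from a gene's own mean was -0.088 for the stroma members, -0.95 for the tendon members and -0.31 for the cartilage and bone members. On heterozygous 5 these medians were 0.030, 0.79 and 0.12. The tendon medians on both arrays are the values of Fmod. By the brightest probe set, the 3 members with a range of at least 1 on the log2 scale were Fmod, Kera and Epyc. Of all probe sets tested, 17.7% had such a range. The highest value of each of the other 7, by the same probe sets, was between 1.14 and 1.49 times its lowest. Among their further probe sets, Dcn 1441506_at ranged 2.64-fold, Aspn 1416652_at 1.82-fold and Ogn 1419662_at 1.69-fold. Those of Bgn and Prelp ranged between 1.19-fold and 1.28-fold.

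**Figure D3:**
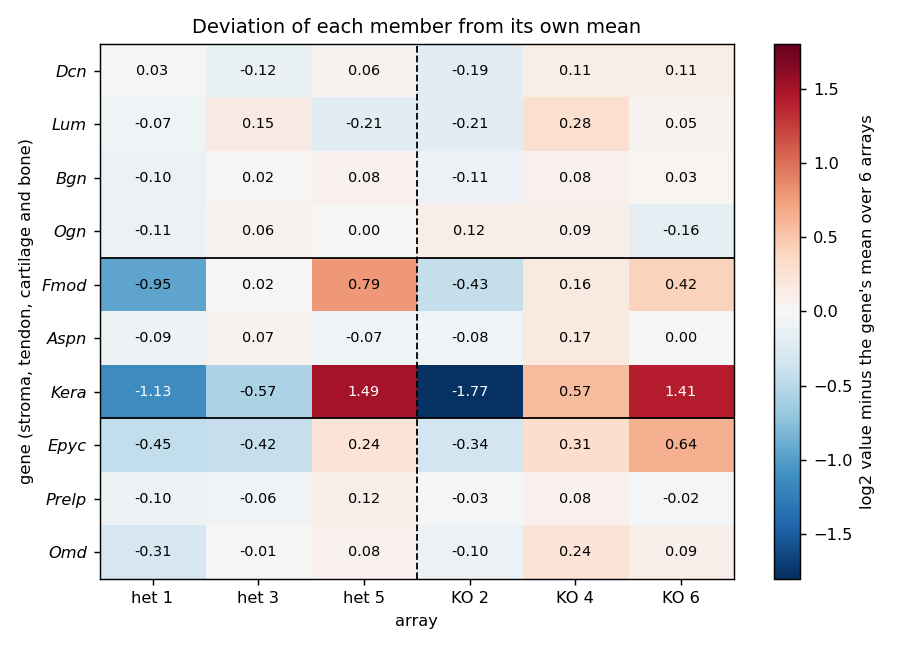
Log2 value of each gene's brightest probe set minus that gene's mean over the 6 arrays, by array (columns) and gene (rows), with stroma members above, tendon members between and cartilage and bone members below the solid lines. Kera runs from -1.77 on knockout 2 to 1.49 on heterozygous 5, while no stroma member leaves the span from -0.21 to 0.28.

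Neighbours on a chromosome did not share 1 profile. On chromosome 10, by the brightest probe sets, Kera differed 12.9-fold and Epyc 2.16-fold between their highest and lowest array. Their neighbours Dcn and Lum differed 1.23-fold and 1.41-fold, but Dcn 1441506_at differed 2.64-fold. Kera and Epyc had the same 3 arrays high, and Dcn did as well by a narrow margin, but Lum was lowest on heterozygous 5, where Kera was highest. On chromosome 1 Fmod differed 3.69-fold and Prelp, beside it, 1.17-fold. On chromosome 13 Aspn, Omd and Ogn differed 1.19-fold, 1.49-fold and 1.21-fold, and Aspn and Omd were both highest on knockout 4.

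Markers of neighbouring tissues were read beside these profiles. Brown fat and adipocyte genes had the same arrays high: of 4 measured markers, 4 had their 3 highest values on heterozygous 5, knockout 4 and knockout 6. Adipoq, the fat hormone adiponectin, read 5038, 5066 and 6724 in heterozygous and 4666, 6688 and 7281 in knockout samples, with the same 3 arrays high as for Epyc. Cidea, a lipid droplet protein, read 5026, 4770 and 6526 against 4091, 6722 and 6849. The summed signal of the fat list lay between 26643 and 34061 in heterozygous and between 25128 and 34212 in knockout samples. Of 10 fibroblast markers, 4 had the same arrays high, and the sum of the 10 lay between 25330 and 29054 and between 25595 and 30326. Over all probe sets tested the share with these arrays high was 11.6%. Pi16 was the 1 fibroblast marker of 10 whose groups did not overlap, with the knockout arrays above, where 3.68% of all probe sets tested did not. Its unadjusted p was 0.0295 (limma), and it did not pass after adjustment. The part of fat and fibroblast genes in the members' profiles was not tested.

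Cartilage markers were mixed. Of 15 measured, 9 were above background on every array, and 4 were above it on no array: Matn1 and Matn3, matrilins of cartilage, Snorc and Col9a2. Col2a1, the main collagen of cartilage, read between 12.6 and 36.0, and Acan, the aggrecan core protein, between 23.5 and 44.6. Sox9, which also marks other epithelia and glands, was bright at 2592 to 4046, and Col9a1 (1174 to 2133) and Col9a3 (800.3 to 1624) were above background on every array. Cytl1, a secreted cartilage protein, read 485.9, 485.5 and 773.9 in heterozygous and 271.4, 423.9 and 464.7 in knockout samples (limma, unadjusted p = 0.0549, adjusted p = 1). It was the 1 gene of 8 tested cartilage markers whose groups did not overlap, where 3.68% of all probe sets tested did not. That count is not a result about the list. Cnmd, chondromodulin, read between 25.9 and 98.1. The summed cartilage list lay between 6913 and 7634 in heterozygous and 6162 and 8107 in knockout samples, a sum weighted to the bright genes Sox9, Col9a1 and Col9a3. Of its 15 genes, 8 of them tested, 0 had their 3 highest values where Kera did. Of 5 bone markers measured, 3 of them tested, 0 followed those arrays either. Over all probe sets tested the share was 11.6%, and with so few tested genes a count of 0 is not a result about either list. Dmp1, a bone matrix protein, was highest on heterozygous 5 at 224.4 and read 26.0 to 81.4 elsewhere. The summed bone list lay between 809.6 and 1025 in heterozygous and 851 and 996 in knockout samples, a sum weighted to Phex, which read 397.2 to 621.8. The part of cartilage and bone in the members' values was not tested.

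Tendon markers were mixed. Cilp, a matrix protein of cartilage and tendon, read 134.5, 292.2 and 472.5 in heterozygous and 234.5, 291.8 and 412.3 in knockout samples, which is close to the course of Fmod. Thbs4, a thrombospondin of tendon and muscle attachment, was highest on heterozygous 5 at 390.4 and lowest on knockout 2 at 89.4, as Kera was. Tnmd, tenomodulin, which is made by tendon cells, read 565.0, 1106 and 939.4 in heterozygous and 2046, 815.0 and 297.5 in knockout samples. It was highest on knockout 2, where Kera was lowest, but on the heterozygous arrays it was lowest on heterozygous 1, as Kera was. Angptl7 was highest on knockout 6 at 457.7 and lowest on knockout 2 at 154.1. Tnc was highest on heterozygous 1 at 1146 and lowest on heterozygous 5 at 530.4, the reverse of Fmod. Comp, at 53.0 and 157.6 on these arrays, had its lowest and highest value where Fmod did. Scx ranged only 1.31-fold. Of 9 tendon markers, 7 of them tested, 1 had its 3 highest values on the arrays where Kera did, against 11.6% of all probe sets tested. The summed tendon list lay between 2627 and 2946 in heterozygous and 2397 and 3609 in knockout samples. Skeletal muscle was uneven as well. Myh4, the fast myosin of muscle fibres, read 6311, 1081 and 1684 against 5888, 1251 and 198.5, so it was highest on heterozygous 1 and knockout 2, where Kera was lowest. Tnnt3 and Ckm, a troponin and the muscle creatine kinase, had the same 2 arrays highest and were lowest on knockout 6 as well, while Myh2, another myosin, was lowest on heterozygous 1 at 37.0. The sum of the 8 muscle markers lay between 15217 and 24754 in heterozygous and between 6489 and 25903 in knockout samples. The part of tendon and muscle in the members' values was not tested.

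**Figure D4:**
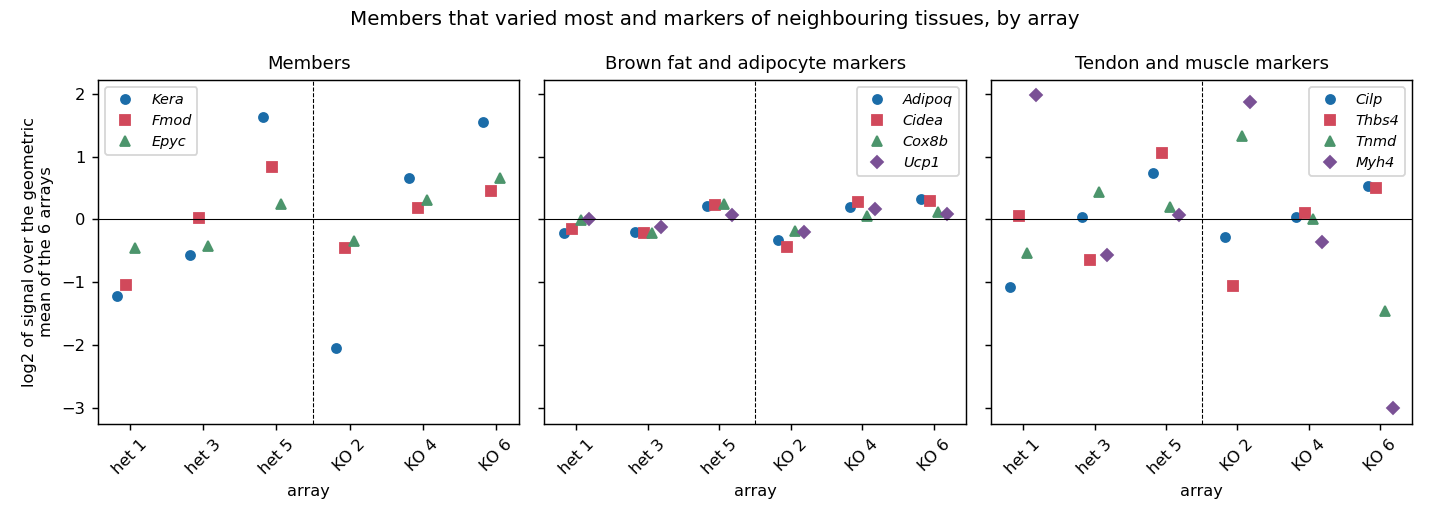
Log2 of the signal over the geometric mean of the 6 arrays (vertical axis) by array, for Kera, Fmod and Epyc, 4 fat markers, and 4 tendon and muscle markers. The fat markers are highest on het 5, KO 4 and KO 6, as the 3 members are by their brightest probe sets, while Myh4 and Tnmd are lowest on KO 6.

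Genes whose course over the 6 arrays came closest to the 3 varying members were sought among all tested genes, by the root mean square difference of log2 values centred on each gene's mean. Closest to Fmod was Wfdc17, a small secreted protein of myeloid cells, at 0.051, followed by Cilp (0.10), the fatty acid binding protein Fabp7 (0.11), the chemokine Ccl2 (0.12) and the aggrecan-cleaving protease Adamts4 (0.12). Wfdc17 read 136.5, 266.2 and 443.6 in heterozygous and 186.1, 284.6 and 347.6 in knockout samples. Closest to Epyc were the neurotrophin receptor Ntrk3 (0.066), the peroxisomal fatty acid oxidation enzyme Ehhadh (0.071), Bola3 (0.075), the triglyceride synthesis enzyme Dgat1 (0.087) and the phosphatase Dusp10 (0.093). Ehhadh read 384.8, 415.8 and 579.7 against 405.9, 606.5 and 842.7, with the same arrays high as Epyc. For Kera, which varied most, the nearest were Dusp15 (0.51), the fatty acid transporter Slc27a2 (0.59), Slco4a1 (0.61), Lgr6 (0.61) and Clec4d (0.63). The distance is not scaled to a gene's range, so a gene of wide range lies further from most others. Fmod stood 0.80 from Kera and Epyc 0.89, and Fmod and Epyc stood 0.37 apart. Ranked by nearness among tested probe sets with 1 symbol, Fmod was at 54 and Epyc at 195 from Kera. From Epyc, Fmod was at 5015, and from Fmod, Epyc was at 518. The distances are a description over 6 arrays.

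Other genes of the pathway showed the same lack of genotype calls. Of 8 further genes of the family, 6 were measured and 4 tested, 2 higher and 2 lower in knockout samples, and 0 passed (limma). Ecm2, which neighbours Aspn, read 141 ± 24.8 and 150.2 ± 20.1, Podn, podocan, read 108 ± 6.16 and 93.2 ± 25.1, and Chadl read 114 ± 5.74 and 124 ± 18.3. Of 18 tested genes that build chondroitin and dermatan sulfate chains, 12 were higher and 6 lower, with a median of 0.077, and 0 passed. B3galt6, which adds a galactose of the linker between chain and core protein, read 59.7, 67.5 and 50.9 in heterozygous and 111.8, 102.9 and 77.8 in knockout samples. It was the 1 gene of the 18 whose groups did not overlap, where 3.68% of all probe sets tested did not, and this count is not a result about the list. The difference was 0.58 with an interval of 0.073 to 1.09 (limma, unadjusted p = 0.0299, adjusted p = 1). Chpf2, a chain polymerase subunit, differed by 0.26 and the sulfotransferase Chst11 by -0.13. Of 6 tested genes for keratan sulfate chains 3 were higher and 3 lower and 0 passed, with the sulfotransferase Chst1 at 384 ± 47.3 and 463 ± 64.7, and with B4galt1 and B3gnt2 differing by -0.049 and -0.054.

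Of 15 fibrillar collagens and partners tested 12 were higher and 3 lower in knockout samples, where 49.3% of all probe sets tested were higher, with a median of 0.086 and 0 past the threshold (limma). Of these 15, 10 had their 3 highest values on heterozygous 5, knockout 4 and knockout 6, against 11.6% of all probe sets tested. Col5a3, a minor fibrillar collagen, read 729 ± 144 and 895 ± 97.8, a difference of 0.30 (-0.080 to 0.68). Fibronectin, Fn1, read 3624 ± 457 and 4276 ± 607, and Col6a3 read 2993 ± 240.2 and 3351 ± 186. Among 16 tested growth factors, receptors and proteases that bind or cleave members, 12 were higher and 4 lower, with a median of 0.071, and 0 passed. Tgfb3 was the 1 gene of the 16 whose groups did not overlap, with the knockout arrays above, where 3.68% of all probe sets tested did not. The collagenase Mmp14 read 342 ± 68.0 and 413 ± 15.2, Bmp4 read 389 ± 41.2 and 333 ± 30.9, and the receptor Met, a binding partner of decorin, read 2980.2 ± 179 and 2557 ± 652.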

How the data were processed

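The authors deposited 1 linear intensity, the signal, per probe set and array of the Affymetrix mouse 430 2.0 array, made with GCOS per the submitters' processing notes, whose version and settings were not stated. Per the labels' protocols, RNA was extracted with a Qiagen kit and amplified by the NuGEN Ovation method. The values carry a common scaling of each array, so a shift shared by most transcripts would not show. Signals were taken as log2(signal + 16.7), with 16.7 the 25th percentile of all values. The 64 control probe sets were left out, and the 27022 of 45037 others with a mean log2 value above the 40th percentile (a signal of 43.5) were compared by limma 3.58.1 in R 4.3.3 (lmFit, eBayes with trend, Benjamini-Hochberg, threshold 0.05) after a test on simulated data. Where a gene had several tested probe sets, the one with the highest mean log2 value stood for it. The platform annotation gave 1 symbol to 34958 probe sets, several to 932 and no symbol to 9211. The members and lists were chosen with earlier results of these data known. Named genes were all members; the 3 of each pathway list with the smallest unadjusted p; up to 4 of each marker list by range, of at least 1 (log2); the 5 closest profiles to each member with such a range; and Slc26a4. Other genes, such as the fat and cartilage markers, were named after their values were seen. Alternatives covered normalization, pseudocount, filter, spread model, array weights, probe set choice and each array left out.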

Additional observations from a re-analysis of the deposited data

How the results depend on the processing

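With 3 arrays a group only large differences could be called, and some dim probe sets lie near the background. Of those of Fmod, 1438966_x_at read 15.8 on knockout 2, under the background of 22.9, while the brightest read 114.1 to 420.4. No paired analysis was run, because the labels name no pairs. The sample numbers alternate between the genotypes, and whether neighbouring numbers were handled together is not stated. By their brightest probe sets Kera, Fmod and Epyc rose in number order within both genotypes, while the other members did not. The part of such an order in the values was not tested. Under each alternative 0 probe sets passed the threshold in limma, with 95 to 966 at an unadjusted p under 0.05. Leaving out 1 array at a time moved the median difference of the 10 members between -0.011 and 0.17, of the stroma members between -0.030 and 0.090, of the tendon members between -0.35 and 0.52 and of the cartilage and bone members between 0.039 and 0.24. The last 2 ranges are also those of Fmod 1456084_x_at and Omd. Among the 20 member probe sets, 4 (Aspn 1416652_at, Omd, Epyc and Prelp 1416322_at) kept their direction under every alternative. With cyclic loess, Bgn 1416405_at and Fmod 1437685_x_at both turned to 6e-04. With array weights, Fmod 1415939_at turned to 0.19, Bgn 1416405_at to 0.056, Ogn 1419662_at to 0.18, Fmod 1437685_x_at to 0.061 and Bgn 1437889_x_at to 0.042. Without heterozygous 1 and knockout 6, a setting added after seeing the data, Prelp 1416321_s_at turned to -0.0065, Kera to -1.07, Ogn 1419662_at to 0.025, Fmod 1437324_x_at to -0.24, Fmod 1437718_x_at to -0.0083, Dcn 1441506_at to -0.27, Bgn 1448323_a_at to -0.081, Dcn 1449368_at to -0.0038 and Fmod 1456084_x_at to -0.54. With 1 array left out, the direction turned at least once for Prelp 1416321_s_at (-0.020 to 0.090), Kera 1418063_at (-0.54 to 1.06), Ogn 1419663_at (-0.021 to 0.12), Fmod 1437324_x_at (-0.12 to 0.37), Bgn 1448323_a_at (-0.047 to 0.11), Fmod 1456084_x_at (-0.35 to 0.52), Fmod 1415939_at (-0.51 to 0.12), Bgn 1416405_at (-0.054 to 0.053), Fmod 1437685_x_at (-0.25 to 0.35), Bgn 1437889_x_at (-0.11 to 0.071), Ogn 1419662_at (-0.26 to 0.11), Dcn 1441506_at (-0.27 to 0.38), Dcn 1449368_at (-0.029 to 0.13), Lum 1423607_at (-0.034 to 0.21) and Aspn 1448421_s_at (-0.0096 to 0.11), where the range is of the values left. The cause of these turns was not tested.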
